A study of Homo sapiens with 6 samples.

Results

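The E2F transcription factors and the retinoblastoma (RB) family were followed in HGC-27 cells, an established line of undifferentiated human gastric carcinoma, after knockdown of ACAT2. ACAT2 encodes the cytosolic acetyl-CoA acetyltransferase, which makes acetoacetyl-CoA at the entry of cholesterol synthesis. The members were taken by symbol, and were E2F1 to E2F8, RB1 and RBL1, that is 10 of the 58735 genes in the table of the series. All 6 libraries of the series were used. The shNC group was 3 libraries of cells, labelled wild type, given the control vector pSIH-H1-Puro-shNC. The shACAT2 group was 3 libraries of cells, labelled as ACAT2 knockdown, given pSIH-H1-Puro-shACAT2. Cells of both groups had 24 h of contact with their vector and then 7 days of puromycin, which leaves cells that carry the vector, so both groups share the vector and the drug. The labels do not say which hairpin was used, and a single line with a single named construct limits what the model covers. The series describes 3 biological replicates per group, numbered 1 to 3.

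Values were in FPKM, that is fragments scaled by gene length and by the size of the library. Values of 3 libraries are given below in the order of their replicate numbers, and gene positions are those of the table, on hg38. Each value could be turned back into whole fragments, and 14086416 to 16067486 fragments per library lay on genes. The log2(FPKM + 1) values of 13832 genes, those whose mean reached 1 FPKM in shNC or in shACAT2, were compared with limma, and a gene was called when its p-value, adjusted by Benjamini and Hochberg over all these genes, was below 0.05. A log2 fold change (log2FC) is shACAT2 minus shNC on this scale, which understates the change of low genes. At this threshold 5.10% of all genes were called, 3.30% higher and 1.81% lower in shACAT2. The split was 456 higher and 250 lower, and was 436 and 365 with upper-quartile scaling and 584 and 581 with limma-voom on the recovered fragments. ACAT2 itself (ENSG00000120437, chromosome 6, 159760328 to 159779055, plus strand) was at 14.2, 11.7 and 12.7 FPKM in the shNC libraries and at 6.19, 5.46 and 6.05 FPKM in the shACAT2 libraries. It fell by 1.01 on the log2 scale (limma adjusted p = 0.00594; 0.0512 without shNC-3), although 397 of its exon bases are shared with the opposite-strand gene TCP1 and the strand setting of the counting is not given in the sources used here.

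Several libraries stood apart. Among the controls, shNC-2 and shNC-3 lay close together. Their chi-square per gene was 1.73, while that of any other pair of replicates was 12.1 to 46.0, so the p-values may rest on fewer than 3 independent control cultures. Both libraries numbered 1 differed from the others of their group along the GC content of genes. Spearman's rho across 13823 genes was 0.55 for shNC-1 and 0.62 for shACAT2-1. For shACAT2 minus shNC, rho was -0.05 with all libraries and -0.16 without both libraries numbered 1. These are descriptions across genes, which are not independent. In shACAT2-3, 7477 genes had a fragment there and in no other library, against 416 to 657 in each of the others. None of 5 epithelial and none of 8 gastric mucosa markers reached a mean of 1 FPKM in either group, and TFF1, GKN1 and PGC were at 0 in every library. The summed epithelial markers were nonetheless higher in shACAT2, at 1.44 to 2.22 FPKM against 0.505 to 0.830 FPKM in shNC, and CDH1 was at 0.161 FPKM in shNC and 0.863 FPKM in shACAT2 on average, without overlap. By contrast, 4 of 5 mesenchymal and 6 of 6 fibroblast markers reached 1 FPKM. The mesenchymal markers summed to 255 to 299 FPKM in shNC and 351 to 468 FPKM in shACAT2. Nearly all of this sum is VIM, whose mean was 263 and 406 FPKM (limma adjusted p = 0.0634), while FN1, ZEB1 and ZEB2 overlapped between the groups and CDH2 was near 0. The fibroblast markers summed to 306 to 340 FPKM and 443 to 536 FPKM, with COL1A1, DCN and LUM called higher. PDGFRA of the same list lay the other way, at 2.46 and 1.56 FPKM on average, without overlap (limma adjusted p = 0.0701; 0.0431 with the replicate block and 0.0322 by limma-voom). None of 6 blood and none of 4 endothelial markers reached 1 FPKM. Whether these features have a part in the differences below was not tested. In such bulk libraries, fewer cells of one kind and less RNA per cell cannot be told apart.

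E2F factors bind DNA as dimers with a DP protein and switch the genes needed for S phase on or off. E2F1, E2F2 and E2F3 are the activators, and are held by RB1 until cyclin-dependent kinases (CDKs) phosphorylate it. E2F4 and E2F5 act mainly as repressors with the pocket proteins RBL1 (p107) and RBL2 (p130), E2F6 represses without a pocket protein and with a Polycomb complex, and E2F7 and E2F8 are atypical repressors that bind DNA without DP. RB1 is lost or inactivated in many tumours, and several E2F genes are themselves E2F targets, which forms a feedback loop around entry into S phase.

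The promoters of the members were searched for the classical E2F site, since this shows which members carry the sequence that the family itself binds. The words TTTCCCGC, TTTCGCGC, TTTGCCGC and TTTGGCGC were sought on both strands from 250 bases before to 50 bases after each RefSeq start on GRCh38.p14. The words do not share bases with each other in the windows printed here. A window was at hand for 8 of the 10 members, but not for E2F5 and E2F8. The RB1 window lies at a start inside the gene, at 48476450, so the sequence around the first base of the gene, at 48303726, was not searched. Of these 8, E2F1, E2F2, E2F3 and RBL1 held a word, and E2F4, E2F6, E2F7 and RB1 did not, while 3.99% of all 27305 genes with a window and 3.31% of all 35116 windows held one. The 30 bases around the words are shown 5′ to 3′ on the strand of the gene, with the words in capitals.
E2F1, chr20:33686393-33686422, minus strand: tttcGCGGCAAAaaggaTTTGGCGCgtaaa
E2F2, chr1:23531257-23531286, minus strand: gcggcacgacgTTTGGCGCtaaaaaaaaaa
E2F3, chr6:20401815-20401844, plus strand: ttgaaaagccgGCGGGAAAtccgagtttcg
RBL1, chr20:37096000-37096029, minus strand: gcagatTTTCGCGCgcTTTGGCGCaggtgg
The words begin 33 and 20 bases before the start in E2F1, 42 bases before it in E2F2, 53 bases before it in E2F3, and 26 and 16 bases before it in RBL1. E2F1 and E2F3 each hold 1 word on the opposite strand, read here as its reverse complement. All 3 activators and 1 pocket protein thus carry a word in at least 1 window, and E2F1 and RBL1 carry 2. The E2F3 word lies in the window of the start at 20401879, and the other E2F3 window, of the start at 20403614, held none. A match describes the letters only, and no binding was measured.

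All 10 members passed the filter and were tested. Of them 1 was called lower (E2F2) and none higher, against 1.81% and 3.30% of all genes, and limma-voom likewise called E2F2 alone. At an unadjusted p below 0.05, 3 were lower (E2F2, E2F3 and E2F6), against 10.7% of all genes, and none was higher, against 12.8%. The same 3 members were lower in all shACAT2 libraries than in any shNC library. Among all genes 14.5% were separated in this direction, 16.2% in the other and 30.7% in either. The log2FC was below 0 for 9 of the 10 members and for 47.7% of all genes, and its median was -0.24 for the members and 0.02 for all genes. No member met the rule of an unadjusted p below 0.05 with a change of more than 1 on the log2 scale, which 1.50% of all genes met.

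**Figure D1:**
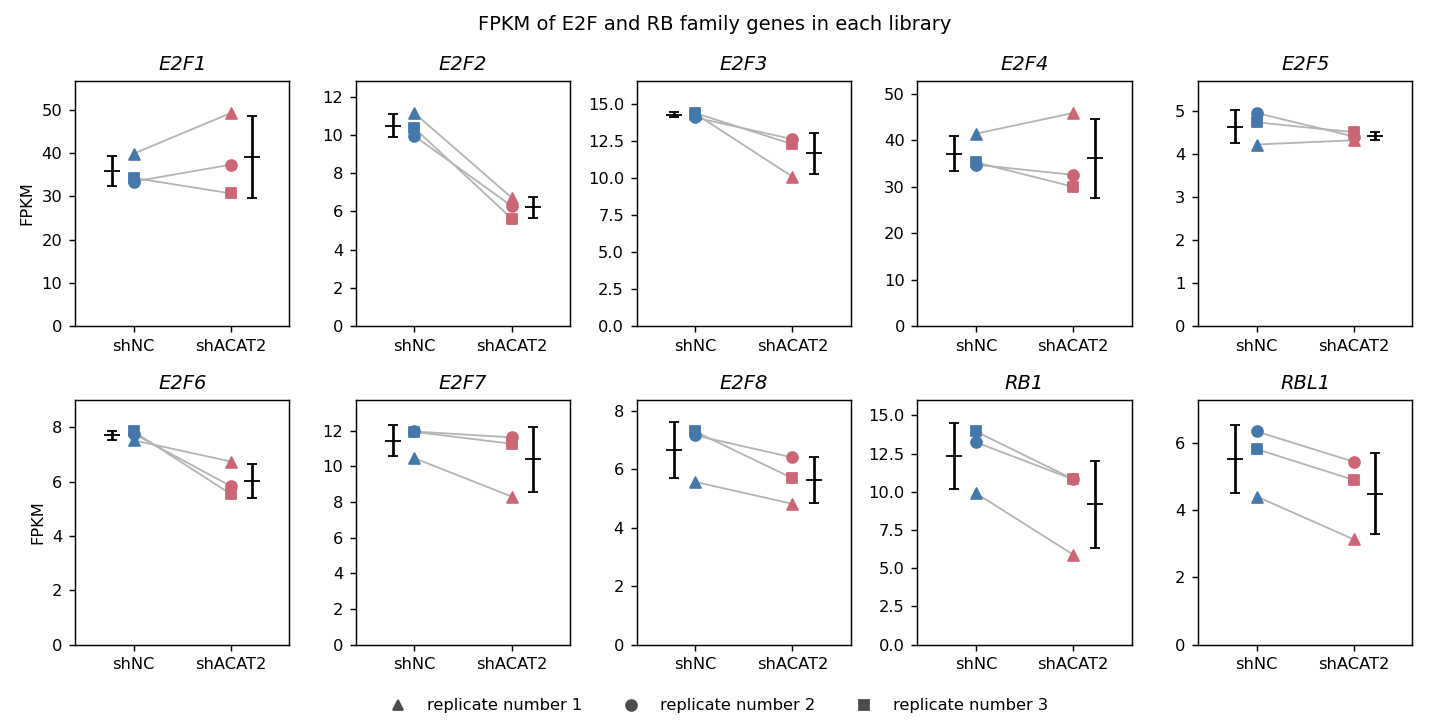
FPKM of the 10 members in each library, 1 panel per gene with its own axis from 0. Symbols give the replicate number, lines join libraries of the same number, and black bars are the mean ± SD of 3 libraries. The shACAT2 points of E2F2, E2F3 and E2F6 lie below all shNC points, and the points numbered 1 stand high for E2F1 and E2F4 and low for RB1 and RBL1 in both groups.

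Among the activators, E2F2 was the member that fell. E2F2 (ENSG00000007968, chromosome 1, 23506430 to 23531220, minus strand) drives entry into S phase together with E2F1 and E2F3. It was at 11.2, 9.96 and 10.4 FPKM in the shNC libraries and at 6.72, 6.28 and 5.63 FPKM in the shACAT2 libraries. The highest shACAT2 value thus lay below the lowest shNC value, and the means were 10.5 ± 0.610 and 6.21 ± 0.550 FPKM (SD, n = 3), a ratio of 0.592. The log2FC was -0.67 (SE 0.10, 95% interval -0.91 to -0.44, limma adjusted p = 0.0159). An exact two-sided permutation test of the 6 values gave p = 0.1, the smallest that 3 against 3 allows. Between 461 and 976 fragments lay behind each value.

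The direction of E2F2 was the same within each replicate number, at -0.65, -0.59 and -0.78 on the log2 scale for numbers 1, 2 and 3. The call was less steady than the direction. With 1 library left out, the log2FC stayed between -0.72 and -0.61, while the limma adjusted p rose to 0.0705 without shNC-1, 0.0839 without shNC-2, 0.101 without shNC-3 and 0.0746 without shACAT2-2. It was 0.0158 without shACAT2-1 and 0.0342 without shACAT2-3. Averaging the close pair shNC-2 and shNC-3 into 1 sample gave 0.0894. Without both libraries numbered 1 it was 0.0392, and with the values corrected for GC content it was 0.00237.

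E2F1 (ENSG00000101412, chromosome 20, 33675683 to 33686404, minus strand), the best known activator and also an inducer of apoptosis genes, showed no such separation. Its FPKM was 39.9, 33.4 and 34.3 in shNC and 49.3, 37.3 and 30.7 in shACAT2. The groups overlapped, with shACAT2-1 above and shACAT2-3 below all shNC values. The log2FC was 0.10 (SE 0.18, limma adjusted p = 0.785), with an interval from -0.33 to 0.53, and turned to -0.08 without shACAT2-1.

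E2F3 (ENSG00000112242, chromosome 6, 20401906 to 20493715, plus strand), the third activator, was at 14.4, 14.1 and 14.4 FPKM in shNC and at 10.1, 12.6 and 12.3 FPKM in shACAT2. All shACAT2 values were lower, and shACAT2-1 was the lowest. The log2FC of -0.28 (SE 0.11, interval -0.53 to -0.02) did not pass the adjusted threshold (limma adjusted p = 0.184). E2F3 gives rise to more than one protein from different starts, which gene-level values do not separate.

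The canonical repressors showed differences near 0. E2F4 (ENSG00000205250, chromosome 16, 67192169 to 67198918, plus strand), the main repressor E2F of resting cells, was at 41.4, 34.7 and 35.2 FPKM in shNC and at 45.8, 32.5 and 29.97 FPKM in shACAT2. Its groups overlapped, and the log2FC was -0.06 (SE 0.18, interval -0.47 to 0.36, limma adjusted p = 0.874). E2F5 (ENSG00000133740), which works with RBL2, was at 4.21, 4.94 and 4.73 FPKM in shNC and at 4.31, 4.39 and 4.50 FPKM in shACAT2. The shACAT2 values lay inside the range of shNC, with a log2FC of -0.06 (SE 0.09, interval -0.27 to 0.15, limma adjusted p = 0.747). Of the exon bases of E2F5, 969 or 16.3% are shared with the opposite-strand gene C8orf59, so reads of the pair may not be told apart.

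E2F6 (ENSG00000169016, chromosome 2, 11444375 to 11466177, minus strand), the Polycomb-linked repressor, was at 7.52, 7.77 and 7.84 FPKM in shNC and at 6.74, 5.83 and 5.54 FPKM in shACAT2. All shACAT2 values were lower, and shACAT2-1 was the nearest to shNC. The log2FC was -0.31 (SE 0.10, interval -0.54 to -0.09) with a limma adjusted p of 0.113, so it did not pass. It passed in 2 of 17 alternative fits, without shACAT2-1 (adjusted p = 0.0473) and with the GC correction (0.0481). The GC fit called 7.26% of all genes lower. It did not pass with the GC correction and the replicate block together (0.0543) or without both libraries numbered 1 (0.0542). Nor did it pass by limma-voom (0.0604) or with the replicate block (0.0747). The 4 annotated E2F6 pseudogenes had no fragment in any library.

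The atypical repressors overlapped between the groups. E2F7 (ENSG00000165891, chromosome 12, 77021247 to 77065580, minus strand) was at 10.5, 12.0 and 11.9 FPKM in shNC and at 8.31, 11.6 and 11.3 FPKM in shACAT2. E2F8 (ENSG00000129173, chromosome 11, 19224063 to 19241620, minus strand), its partner in repressing G1/S genes, was at 5.57, 7.17 and 7.30 FPKM in shNC and at 4.82, 6.41 and 5.70 FPKM in shACAT2. In both genes the library numbered 1 was the lowest of its group. The log2FC was -0.14 (interval -0.47 to 0.19, limma adjusted p = 0.605) for E2F7 and -0.21 (interval -0.53 to 0.11, limma adjusted p = 0.405) for E2F8.

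The pocket proteins also overlapped. RB1 (ENSG00000139687, chromosome 13, 48303726 to 48599436, plus strand), the tumour suppressor that restrains the activator E2Fs, was at 9.90, 13.2 and 13.9 FPKM in shNC and at 5.88, 10.8 and 10.8 FPKM in shACAT2. RBL1 (ENSG00000080839, chromosome 20, 36996349 to 37095995, minus strand), which acts with E2F4 at repressed genes, was at 4.41, 6.35 and 5.83 FPKM in shNC and at 3.13, 5.45 and 4.90 FPKM in shACAT2. In each gene the library numbered 1 was the lowest of its group, and within each number the shACAT2 value was the lower. For RB1 the log2FC was -0.42 (SE 0.24, interval -0.99 to 0.14, limma adjusted p = 0.333), and for RBL1 it was -0.26 (SE 0.20, interval -0.72 to 0.20, limma adjusted p = 0.467).

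With the replicate number as a block, the adjusted p was 0.0604 for RB1 and 0.0804 for RBL1. In that fit 12.5% of all genes were called, 7.67% higher and 4.81% lower, and E2F2 was again the single member called, with an adjusted p of 0.0184. With the GC correction and the block together, RB1 (adjusted p = 0.0266) and RBL1 (0.0375) were called lower beside E2F2 (0.00908), at a log2FC of -0.48, -0.30 and -0.68, in a fit that called 9.30% of all genes lower. The call of the pocket proteins therefore differed between fits, while their direction was downward in each of the 3 numbers.

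**Figure D2:**
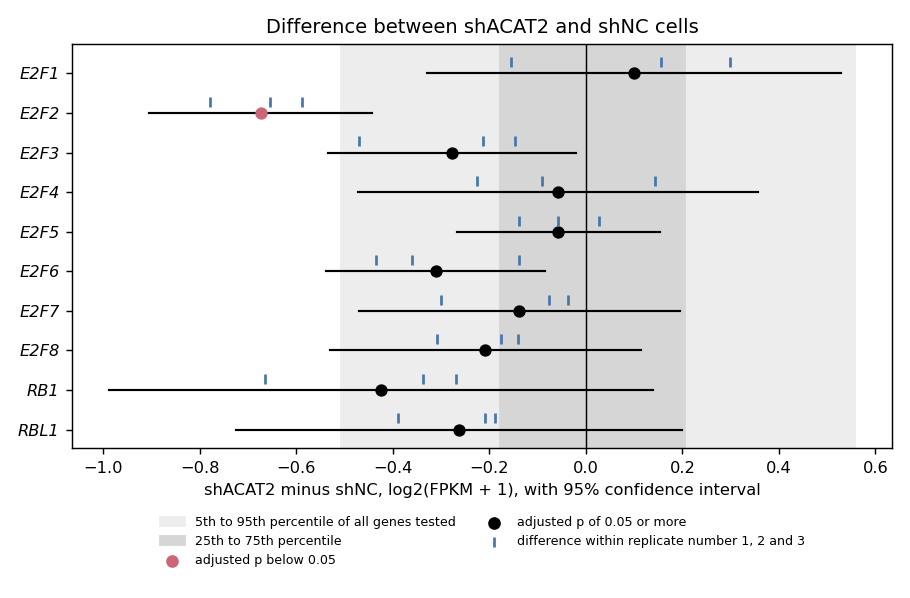
Difference of shACAT2 minus shNC in log2(FPKM + 1) for the 10 members, with the limma 95% interval as a line, the differences within replicate numbers 1, 2 and 3 as ticks, and percentiles of all genes tested as grey bands. E2F2 lies farthest below 0 at -0.67, and the interval of RB1, from -0.99 to 0.14, is the widest.

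The libraries numbered 1 moved the members in opposite directions in both groups. E2F1 and E2F4 were higher there than in the mean of numbers 2 and 3, by 0.23 and 0.24 on the log2 scale in shNC and by 0.53 and 0.54 in shACAT2. RB1 and RBL1 differed by -0.42 and -0.39 in shNC and by -0.78 and -0.58 in shACAT2. The GC content of the longest transcript was 62.5% for E2F1 and 59.3% for E2F4, and 37.3% for RB1 and 40.0% for RBL1. E2F2, with a GC content of 57.5%, differed by 0.12 and 0.15, which is less than its difference between the groups. The part of GC content in the values of single members was not tested beyond the corrected fits given here.

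The order of the levels put E2F4 and E2F1 first in both groups. In shNC, the mean FPKM was 37.1 for E2F4, 35.9 for E2F1, 14.3 for E2F3, 12.4 for RB1, 11.5 for E2F7, 10.5 for E2F2, 7.71 for E2F6, 6.68 for E2F8, 5.53 for RBL1 and 4.63 for E2F5. The ranges over libraries of E2F4 and E2F1 overlapped, as did those of RB1 with E2F7, E2F7 with E2F2, E2F8 with RBL1 and RBL1 with E2F5. In shACAT2 every neighbour in the order overlapped with the next, apart from E2F4 and E2F3. There E2F2 at 6.21 FPKM lay beside E2F6 at 6.03 FPKM, whereas in shNC the 2 ranges were apart.

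Activators were then set against the canonical repressors within each library. The mean log2(FPKM + 1) of the 3 activators minus that of E2F4 and E2F5 was 0.41, 0.29 and 0.35 in the shNC libraries and 0.04, 0.22 and 0.11 in the shACAT2 libraries. All shACAT2 libraries were below all shNC libraries, with a mean of 0.12 ± 0.09 against 0.35 ± 0.06 (SD, n = 3) and a difference of -0.23 on the log2 scale. This mean weights equally the 3 activators E2F1, E2F2 and E2F3, whose log2FC were 0.10, -0.67 and -0.28. The other repressors E2F6, E2F7 and E2F8 are not part of this difference. Their log2FC were -0.31, -0.14 and -0.21, below the -0.06 of both E2F4 and E2F5. The separation of the groups thus holds for the canonical repressors, and a difference against all repressors is not given. The activators made up 47.3% ± 1.19 of the summed FPKM of the 8 E2F genes in shNC and 47.6% ± 1.34 in shACAT2. This abundance-weighted share differed by less than the spread between libraries. It counts E2F6, E2F7 and E2F8 too, so it departs from the difference above in its genes as well as in its weights.

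Within that share the parts of single activators differed between the groups. E2F2 took 8.29%, 8.03% and 8.23% of all E2F FPKM in shNC and 4.94%, 5.37% and 5.33% in shACAT2, without overlap. E2F1 took 27.9% ± 1.49 in shNC and 32.4% ± 3.60 in shACAT2 (SD, n = 3), and the groups overlapped. The ratio of E2F2 to E2F1 was 0.280, 0.298 and 0.303 in shNC and 0.136, 0.168 and 0.184 in shACAT2. The ratio of E2F1 to RB1 was 4.02, 2.52 and 2.46 in shNC and 8.38, 3.45 and 2.83 in shACAT2, highest in the library numbered 1 of each group.

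**Figure D3:**
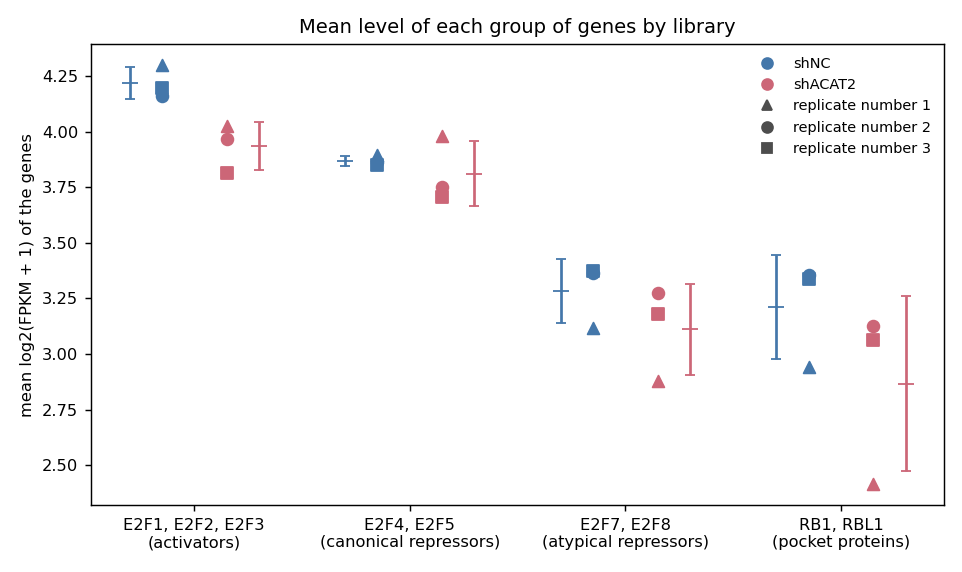
Mean log2(FPKM + 1) of the activators, canonical repressors, atypical repressors and pocket proteins in each library, with symbols for the replicate number and bars for the mean ± SD of 3 libraries. The activators lie between 4.16 and 4.30 in shNC and between 3.82 and 4.02 in shACAT2, while the groups overlap for the other classes.

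The partners of the family were next examined. The list held 11 genes for DP proteins, the third pocket protein and the MuvB/DREAM complex, which keeps cell cycle genes silent in resting cells. Of these 11, 9 passed the filter and none was called by limma, against 5.10% of all genes. At an unadjusted p below 0.05 there was 1, against 23.5% of all genes. With the replicate block 1 was called, against 12.5%. By limma-voom none was called, against 4.22% of all genes called higher and 4.20% lower. TFDP1, the main dimer partner of E2Fs, was at 60.9, 52.8 and 52.4 FPKM in shNC and at 65.0, 57.4 and 61.1 FPKM in shACAT2 (limma adjusted p = 0.489). RBL2, the pocket protein of resting cells, had a log2FC of -0.13 (limma adjusted p = 0.590). LIN52, the MuvB subunit that links the complex to the pocket proteins, was at 6.92, 6.43 and 7.15 FPKM in shNC and at 4.82, 5.33 and 5.07 FPKM in shACAT2. All its shACAT2 values were lower, with a log2FC of -0.37, a limma adjusted p of 0.0602 and one of 0.0461 with the replicate block. The DNA-binding subunit LIN54 had a log2FC of 0.22, FOXM1, the activator of G2/M genes, one of 0.18, and MYBL2, which joins MuvB in S phase, one of -0.02 (limma adjusted p = 0.420, 0.397 and 0.951). LIN9, TFDP2 and RBBP4 had a log2FC of 0.06, 0.03 and -0.01 (limma adjusted p = 0.801, 0.907 and 0.965), and that of TFDP2 was below 0 under both other scalings. TFDP3, at 0 in all libraries but shACAT2-3, and LIN37, at 0.348 to 0.817 FPKM, lay under the filter.

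None of the 10 subunits of the Polycomb complex PRC1.6, in which E2F6 acts, was called by limma, although 9 had a log2FC above 0 and 3 of these had an unadjusted p below 0.05, against 52.3% and 12.8% of all genes. By limma-voom 1 was called higher, MAX, against 4.22% of all genes. MAX, the dimer partner of MGA and MYC, was at 11.9, 10.2 and 9.81 FPKM in shNC and at 17.5, 14.5 and 14.1 FPKM in shACAT2. Its shACAT2 values were all higher, with a log2FC of 0.49 (limma adjusted p = 0.0704; 0.0227 with the replicate block). YAF2 and PCGF6, both of the same complex, had a log2FC of 0.32 and 0.25 (limma adjusted p = 0.165 and 0.209). The median log2FC of the 10 subunits was 0.20, against -0.31 for E2F6 itself. The 1 subunit with a log2FC below 0 was MGA, at -0.37 (limma adjusted p = 0.401), and its groups overlapped. MGA was chosen after its values were seen.

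Upstream of RB1, 2 of 15 tested cyclins, CDKs and CDK inhibitors (of 16 listed) were called higher and none lower, against 3.30% and 1.81% of all genes. Both are inhibitors. CDKN1A (p21), which blocks cyclin-CDK complexes, was at 4.20, 3.60 and 3.40 FPKM in shNC and at 9.37, 7.12 and 5.97 FPKM in shACAT2, and rose by 0.83 on the log2 scale (SE 0.16, limma adjusted p = 0.0343). CDKN2B (p15), which blocks CDK4 and CDK6, was at 2.82, 3.59 and 3.23 FPKM in shNC and at 4.98, 5.92 and 5.14 FPKM in shACAT2, and rose by 0.59 (SE 0.11, limma adjusted p = 0.0305). Both were separated between the groups, and both calls were lost when shACAT2-2 or any single shNC library was left out, with adjusted p up to 0.153 for CDKN1A and 0.140 for CDKN2B. Without both libraries numbered 1, the adjusted p was 0.0469 and 0.0592, and without a filter it was 0.117 and 0.106. The call of CDKN2B was also lost with upper-quartile scaling (adjusted p = 0.0531) and library-size scaling (0.0502), and that of CDKN1A was not.

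CCND2 (cyclin D2), an activator of CDK4 and CDK6, had a log2FC of -0.37 and a limma adjusted p of 0.0626. It was called lower with the replicate block (adjusted p = 0.0337), with upper-quartile scaling (0.0384), with library-size scaling (0.0315) and by limma-voom (0.0229). Under both scalings the list thus had 1 gene called higher and 1 lower, and by limma-voom 2 and 1. Of all 13832 genes, upper-quartile scaling called 436 higher and 365 lower, and library-size scaling called 486 and 399. Limma-voom called 4.22% of all genes higher and 4.20% lower. With the replicate block 3 were called higher and 1 lower, against 7.67% and 4.81% of all genes, the third being CDKN2D (p19), another inhibitor of CDK4 and CDK6 (limma adjusted p = 0.0693 without the block and 0.0364 with it). CCND2 and CDKN2D were chosen after their values were seen.

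Of 69 G1/S target genes of E2F, 68 were tested, of which 3 were called lower and 1 higher, beside 1.81% and 3.30% of all genes. The log2FC was below 0 for 51 of them, and its median was -0.14, against 47.7% and 0.02 for all genes. TIMELESS, a replication fork protein, was at 45.4, 39.4 and 40.6 FPKM in shNC and at 27.7, 26.1 and 25.5 FPKM in shACAT2, and fell by 0.64 on the log2 scale (SE 0.10, limma adjusted p = 0.0220). POLE, the catalytic subunit of a leading-strand polymerase, was at 9.82 ± 0.466 and 7.00 ± 0.127 FPKM (SD, n = 3) and fell by 0.43 (limma adjusted p = 0.0348). SLBP, which binds histone mRNAs, was at 66.9 ± 3.58 and 46.0 ± 4.06 FPKM and fell by 0.53 (limma adjusted p = 0.0443).

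PCNA, the sliding clamp of DNA polymerases, moved the other way. It was at 88.3, 87.5 and 85.3 FPKM in shNC and at 155, 133 and 135 FPKM in shACAT2, and rose by 0.68 on the log2 scale (SE 0.11, limma adjusted p = 0.0208). These 4 genes were each separated between the groups, and none was called when shACAT2-2 or any single shNC library was left out. Without both libraries numbered 1, POLE and SLBP were at an adjusted p of 0.0511 and 0.0570, and PCNA and TIMELESS at 0.0344. With the replicate block 10 targets were called lower and 1 higher, against 4.81% and 7.67% of all genes. With the GC correction they were 15 and 1, against 7.26% and 9.25%. A word of the E2F site lay in the promoter window of 31 of the 57 G1/S targets that had one, or 54.4%.

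The 55 G2/M targets of the DREAM complex, which are expressed later in the cycle, had a median on the other side of 0. Of the 54 tested none was called by limma, 7 had an unadjusted p below 0.05, which 23.5% of all genes had, and limma-voom on the recovered fragments called 1 lower, ESPL1, against 4.20% of all genes. The log2FC was below 0 for 15 of 54, and its median was 0.11. CDKN3, a CDK-binding phosphatase, was at 19.3 ± 1.62 and 25.6 ± 1.98 FPKM (SD, n = 3), with a limma adjusted p of 0.0928. CDC25B, a phosphatase that activates CDK1, was at 31.6 ± 2.29 and 42.8 ± 6.88 FPKM (limma adjusted p = 0.132), and ESPL1, the separase, at 24.9 ± 1.79 and 19.6 ± 1.27 FPKM (limma adjusted p = 0.120). With the replicate block 4 were called higher (HMMR, CKS2, CDC25B and PTTG1) and 3 lower (ESPL1, BUB1B and MKI67), and 12.5% of all genes were called in that fit. Of these, HMMR, CKS2, PTTG1, BUB1B and MKI67 were chosen after their values were seen. An E2F word lay in the window of 4 of 47 of these genes, or 8.51%.

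Of 9 apoptosis genes known as targets of E2F1, 8 were tested and none was called by limma. At an unadjusted p below 0.05 there were 4, against 23.5% of all genes. By limma-voom 1 was called lower, TP73, against 4.20% of all genes. CASP8, an initiator caspase, was at 2.44 ± 0.058 and 3.30 ± 0.189 FPKM (SD, n = 3; limma adjusted p = 0.0875). TP73, a p53 relative, was at 1.25 ± 0.172 and 0.620 ± 0.085 FPKM (limma adjusted p = 0.103). It passed the filter of 1 FPKM through shNC alone, where it is high, and 53 to 148 fragments lay behind each value. Its place among the 4 genes, its limma-voom call and its separation are therefore a description only. The groups did not overlap for either gene, of which TP73 was lower and CASP8 higher in shACAT2.

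The genes whose values were most like those of E2F2 over the 6 libraries were SEMA6B, OTX1 and RIMS4, with Pearson's r of 0.999, 0.998 and 0.998 on the log2(FPKM + 1) scale. In all, 287 genes had an r above 0.95 with E2F2. Those most like E2F6 were SLCO4A1, GLT8D1 and CNN3, with an r of 0.997, 0.995 and 0.987, and 109 genes had an r above 0.95. The 6 points share their libraries and the difference between the groups, so these values are a description.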

How the data were processed

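The authors deposited FPKM values of 58735 genes in 6 libraries, with gene lengths. The submitters' processing notes name HISAT2 2.0.5, featureCounts 1.5.0-p3, DESeq2 1.20.0 and hg38, and sequencing was done by LC-Bio. Multiplied by gene length, 100% of values came out as whole fragments (tolerance 0.1). Groups and numbers were taken from the sample titles. limma 3.58.1 (R 4.3.3, with a trend) was fitted on log2(FPKM + 1) over all 13832 genes whose mean reached 1 FPKM in 1 group or both. Other steps used Python 3.11.15, numpy 2.4.6, pandas 2.3.3 and scipy 1.17.1. The fit was tested on simulated fragments, drawn independently for each library. They had no GC trend, shared replicate number or close pair, so that test does not cover these features of the real libraries. No other per-sample column was used.

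The members and all gene lists were chosen with earlier results of these data known. Named genes were the members, the partners, and, per list, the called genes or else the 3 with the smallest p, of which 1 gene is not reported here. The block treated libraries of the same number as pairs, which is an assumption. Their deviations from the group means correlated at 0.445, 0.126 and 0.171 for numbers 1, 2 and 3. However, shNC-2 with shACAT2-3 gave 0.198 and shNC-3 with shACAT2-2 gave 0.141. For numbers 2 and 3 the correlations thus do not tell these pairs from the crossed ones. Alternatives were other scalings, filters and pseudocounts, the replicate block, limma-voom on the recovered fragments, each library left out and shNC-2 with shNC-3 averaged. The GC correction and the fit without both libraries numbered 1 were added after seeing the data. Promoter windows and sequences came from RefSeq on GRCh38.p14.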

Additional observations from a re-analysis of the deposited data

How the results depend on the processing

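The number of members called, 1, was 2 with the GC correction, 3 with the GC correction and replicate block, 0 with the close shNC pair averaged, 0 by the unadjusted rule, and 0 to 2 with 1 library left out. It was 0 when shACAT2-2 or any single shNC library was left out, and 2 without shACAT2-1. The G1/S targets called, 4, were 1 without a filter, 8 with upper-quartile scaling, 9 by limma-voom, 11 with the replicate block, 16 with the GC correction, 23 with both, 0 with the close shNC pair averaged, 0 by the unadjusted rule and 0 to 8 with 1 library left out. They were 8 without shACAT2-1 and 2 without shACAT2-3, and 0 without any other single library. The G2/M targets called, 0, were 1 with upper-quartile scaling, library-size scaling, limma-voom or both libraries numbered 1 left out, 7 with the replicate block, 7 with the GC correction and 14 with both. The number called over all genes moved too. Of 13832 genes it was 706 in the main fit, 801 with upper-quartile scaling and 885 with library-size scaling. It was 1165 by limma-voom and 1727 with the replicate block. Of 13823 genes it was 2282 with the GC correction and 2834 with both. It was 209 of 41161 without a filter and 83 of 13838 with the close shNC pair averaged. With 1 library left out it was 63 to 862. The cause of these moves was not tested. Leaving out 1 library also lowers the number of samples.

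ACAT2 had a log2FC from -1.07 to -0.94 with 1 library left out, and its adjusted p was above the threshold without shNC-3, at a log2FC of -1.01. The activator minus canonical repressor difference moved by less than the spread between libraries in all alternatives run, from -0.27 to -0.16. The replicate block changed no member's call. The log2FC, such as -0.67 for E2F2, cannot change with a block of complete pairs. Directions turned for small values: TFDP2 was at -0.0195 with upper-quartile scaling, -0.0149 with library-size scaling, -0.0187 by limma-voom and -0.0171 with the close shNC pair averaged. With 1 library left out, the log2FC ran from -0.0766 to 0.26 for E2F1, from -0.24 to 0.0605 for E2F4, from -0.22 to 0.0019 for E2F7, from -0.0228 to 0.11 for TFDP2, from -0.0347 to 0.0229 for RBBP4 and from -0.15 to 0.0918 for MYBL2. Between 283 and 2493 fragments lay behind each value of a member.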
